A study of Mus musculus with 23 samples.

Results

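The genes of glycolysis and the pentose phosphate pathway were followed as 33 named genes, picked by symbol out of the 32285 genes counted in each expression library. They were the glucose carriers Slc2a1 and Slc2a3, the hexokinases Hk1, Hk2 and Hk3, the enzymes of the later steps from Gpi1 to Pkm, the lactate dehydrogenases Ldha and Ldhb, the lactate carriers Slc16a1 and Slc16a3, the regulators Pfkfb3, Pfkfb4 and Pdk1, the pyruvate dehydrogenase subunits Pdha1, Pdhb and Dlat, and the pentose phosphate enzymes G6pdx, Pgd, Tkt and Taldo1. The rule itself used symbols and no measured value, although it was set with earlier results of these data known. The levels of all 33 were compared between genotypes of the mouse Stat5b gene in bone marrow (BM), lymph node (LN) and spleen.

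Glycolysis splits glucose into pyruvate in the cytosol and yields ATP without oxygen. Pyruvate is then either reduced to lactate and exported or handed to the pyruvate dehydrogenase complex of the mitochondrion, and the pentose phosphate pathway branches off glucose 6-phosphate to make NADPH and ribose. Proliferating blood progenitors and activated T cells are known for high glycolytic flux, red-cell precursors depend on these enzymes as they lose their mitochondria, and several glycolytic genes are known targets of HIF-1 and MYC.

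Single-cell RNA sequencing was run on mice aged 2 months of strain C57BL/6 by the labels, given as C57BL/6N in the methods, that carried either WT Stat5b or a missense change of 1 tyrosine of the encoded transcription factor, to phenylalanine (Y665F) or to histidine (Y665H). The changes were edited into the endogenous locus, so they were present in every cell of the body. BM gave 2 libraries each of WT, Y665H and Y665F, LN gave 2 WT, 3 Y665F heterozygous (het) and 2 Y665F homozygous (homo), and spleen gave 1 library of each of WT, Y665H and Y665F, made from CD45+ cells of several mice combined per genotype. The sample labels gave zygosity for LN alone, and Y665H was not analysed in LN here.

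The 16 libraries held between 2621583 and 55768078 unique molecular identifiers (UMIs, each standing for 1 captured RNA molecule), and the 2 shallowest were LN het replicate 3 and homo replicate 1, with medians of 368 and 395 UMIs per barcode. No pair of libraries shared more than 476 barcodes, or 2.89% of the smaller library. In BM the replicate 1 libraries of all 3 genotypes carried Xist, the RNA of the inactive X chromosome, at 237 to 884 CPM (UMIs of a gene per 1e6 UMIs) and 4 Y-linked genes at 0.0900 CPM or less, while the replicate 2 libraries held Xist at 0.587 CPM or less and the Y-linked genes at 64.1 to 109 CPM. The methods of the study name male mice. Replicate number and this split therefore ran together in every BM genotype, and the members called are also given within each number. In LN and spleen all libraries were of the Y-linked kind. Cells were assigned to classes by the UMIs of fixed marker genes, called gates here, and UMIs were summed per library and gate. In BM the neutrophil gate held 6 to 33 cells in WT and Y665H libraries and 483 and 441 in Y665F. Both mutants were compared with the same WT libraries.

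Gapdh (glyceraldehyde-3-phosphate dehydrogenase, the step that makes NADH) covers chr6:125161715-125166467 on the minus strand of GRCm38, Aldoa (aldolase A, which cleaves fructose 1,6-bisphosphate) covers chr7:126795234-126800751 on the minus strand, and Taldo1 (transaldolase of the pentose phosphate pathway) covers chr7:141392199-141402968 on the plus strand. The 250 bases before a RefSeq start of each (GRCm38.p6) are shown because these members fell together below. Capitals mark ACGTG on either strand, the core of the element bound by HIF-1.
Gapdh, chr6:125165774-125166023, minus strand: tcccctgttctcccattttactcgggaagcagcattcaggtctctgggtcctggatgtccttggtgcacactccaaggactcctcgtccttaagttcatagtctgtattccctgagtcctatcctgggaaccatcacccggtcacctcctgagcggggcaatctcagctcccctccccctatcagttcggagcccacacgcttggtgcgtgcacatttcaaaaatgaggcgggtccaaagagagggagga
Aldoa, chr7:126799255-126799504, minus strand: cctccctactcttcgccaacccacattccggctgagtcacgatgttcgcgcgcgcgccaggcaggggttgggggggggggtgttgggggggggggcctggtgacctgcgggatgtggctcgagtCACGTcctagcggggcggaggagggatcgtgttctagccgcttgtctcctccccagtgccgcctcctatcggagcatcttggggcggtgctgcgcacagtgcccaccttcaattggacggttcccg
Taldo1, chr7:141391910-141392159, plus strand: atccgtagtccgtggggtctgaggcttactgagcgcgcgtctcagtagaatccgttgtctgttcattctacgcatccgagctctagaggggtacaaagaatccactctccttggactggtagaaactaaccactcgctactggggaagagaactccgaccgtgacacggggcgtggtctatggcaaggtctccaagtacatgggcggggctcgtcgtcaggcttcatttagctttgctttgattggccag
ACGTG occurred in 16 of the 46 RefSeq promoters of the members, from 13 of 32 genes with an entry, and in 16.6% of 32851 promoters of the same length. CACGTG, which overlaps it and is the E-box read by MYC family factors, occurred in 4 of 46 against 6.02%, and the STAT element TTCNNNGAA in 2 of 46 against 7.02%. Of the windows printed, Aldoa held 1 ACGTG, and Gapdh and Taldo1 held none of these letters.

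In BM the members that took the most UMIs were Gapdh, Aldoa and Taldo1. Over all kept cells Gapdh stood at 1191 and 1146 CPM in WT, 1142 and 932 in Y665H, and 379 and 393 in Y665F. Aldoa followed at 624 and 641 CPM in WT, 695 and 480 in Y665H, and 183 and 106 in Y665F. Taldo1 stood at 516 and 616 CPM in WT, 674 and 542 in Y665H, and 209 and 152 in Y665F. The 2 Y665F libraries lay below the other 4 for each of these genes. Summed over the 33 members, the level was 4929 and 4295 CPM in WT, 4588 and 3649 in Y665H, and 2474 and 2421 in Y665F. Among 7500 genes at 10 CPM or more on average, the Y665F libraries lay below the other 4 for 25.7%, and for 9 of 26 members above that level. They lay above the other 4 for 33.7% of genes and for 6 of 26 members. Both Y665H libraries lay below both WT libraries for 29.6% of genes and 6 of 26 members, and above them for 6.32% of genes and none of the 26. That comparison left Y665F out, so its shares are not on the same scale as those of Y665F. Levels in bulk sums cannot separate fewer cells of a type from less RNA per cell, so the comparisons below were made within gates.

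Members of a family differed in where they were found. Hexokinase 1, the broadly expressed form, averaged 99.4 CPM in the erythroid gate and 45.4 in the monocyte gate over the 6 BM libraries, whereas Hk3, a myeloid hexokinase, averaged 32.3 CPM in the GMP gate (granulocyte-monocyte progenitors) and 3.22 in the erythroid gate. The muscle-type phosphofructokinase Pfkm was highest in the erythroid gate at 22.2 CPM and lowest in the B lineage gate at 8.42, and the platelet-type Pfkp had 19.7 CPM in the monocyte gate and 6.63 in the erythroid gate. Pkm, the pyruvate kinase gene of most tissues, stood at 218 CPM in the GMP gate and 28.5 in the erythroid gate, where red cells use Pklr in its place. Ldhb, the lactate dehydrogenase subunit that prevails in oxidative tissues, averaged 74.7 CPM in the stem gate and 6.62 in the erythroid gate. The lactate carrier Slc16a1 was at 36.0 CPM in the erythroid gate against 11.4 in the monocyte gate. Eno2, the neuronal enolase, was below 0.5 CPM in every BM library.

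**Figure D1:**
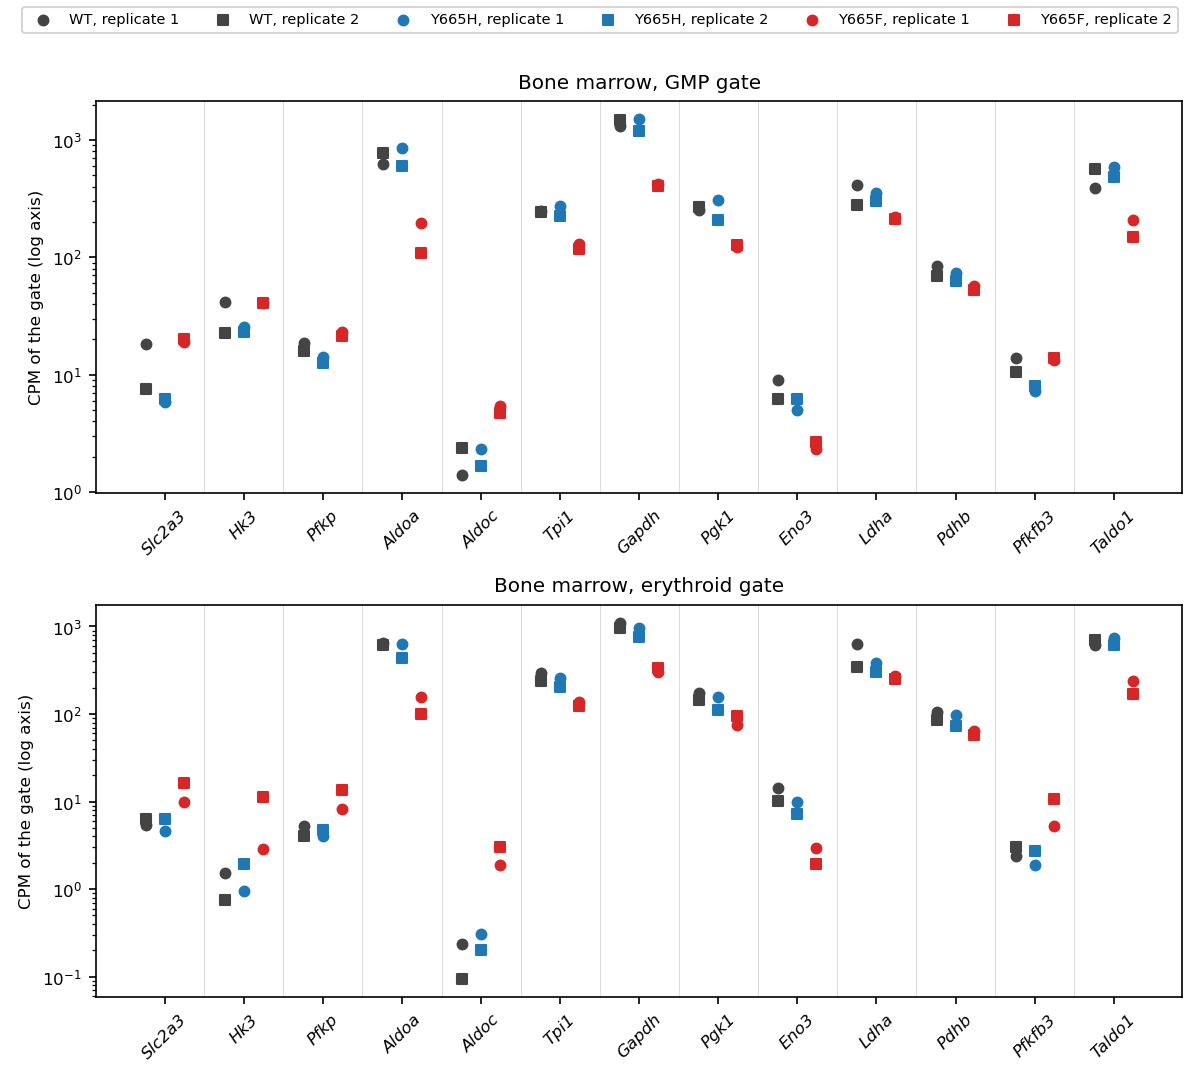
Levels of the members called in any BM comparison of Y665F with WT, as CPM on a log axis, in the GMP gate and the erythroid gate, with 1 marker per library coloured by genotype. For Gapdh, Aldoa and Taldo1 the 2 Y665F libraries sit below all 4 others in both gates, and for Aldoc they sit above.

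In the GMP gate, which held between 1281 and 8663 cells per library, 4 of 32 members tested were lower in Y665F than in WT and none was higher. Over all 11770 genes tested, 9.53% were called, 5.47% as lower. The genes called were Aldoa, Gapdh, Eno3 and Taldo1. Gapdh stood at 1325 and 1478 CPM in WT, 1513 and 1193 in Y665H, and 417 and 405 in Y665F. Its log2 fold change was −1.82 ± 0.39 (SE, adjusted p = 0.0176, edgeR quasi-likelihood test with 2 libraries per genotype). Aldoa stood at 624 and 779 CPM in WT, 853 and 596 in Y665H, and 198 and 108 in Y665F, which gave −2.25 ± 0.44 (adjusted p = 0.0132). For both genes each Y665F library lay below each of the other 4. Taldo1, which returns pentose carbon to glycolysis, was at 390 and 568 CPM in WT, 587 and 487 in Y665H, and 206 and 149 in Y665F, a log2 difference of −1.51 ± 0.41 (adjusted p = 0.0366). Eno3, the enolase best known from muscle, was a low gene, at 8.96 and 6.21 CPM in WT, 4.99 and 6.13 in Y665H, and 2.32 and 2.67 in Y665F, and differed by −1.59 ± 0.33 (adjusted p = 0.0161). For both of these genes the Y665F libraries lay below the other 4 as well, while WT and Y665H overlapped for Taldo1. Within replicate 1 libraries alone the log2 ratio of CPM of Y665F over WT was −1.67 for Gapdh, −1.66 for Aldoa, −0.92 for Taldo1 and −1.95 for Eno3, and within replicate 2 libraries it was −1.87, −2.84, −1.93 and −1.22.

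Further members of the later steps of glycolysis had negative estimates in the GMP gate without passing the test. Pgk1 (phosphoglycerate kinase, which makes ATP) gave −1.12 (adjusted p = 0.0521), Tpi1 (triose phosphate isomerase) −1.01 (adjusted p = 0.0598), Pgam1 (phosphoglycerate mutase) −1.03 (adjusted p = 0.0664) and Pkm −0.91 (adjusted p = 0.0890). For Pgk1 the CPM were 255 and 268 in WT, 306 and 208 in Y665H, and 122 and 127 in Y665F, with no overlap of Y665F and the rest. The largest positive estimate was that of Aldoc, the brain-type aldolase, at 1.26 (adjusted p = 0.0830), from 1.38 and 2.35 CPM in WT to 5.37 and 4.69 in Y665F. With cells positive for cell cycle genes left out, none of the 4 passed the test, at estimates of −2.13 for Aldoa, −1.58 for Gapdh, −1.42 for Taldo1 and −1.27 for Eno3. No member passed without Y665F replicate 2 either, while 11 members were called without WT replicate 1, 2 with 1 Y665H library left out, whichever it was, and 1 without Y665F replicate 1. With the replicate number as a block, 8 members were called, all lower. The share of all genes under these alternative settings is not given, so their counts are not read as particular to the members.

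In the erythroid gate (965 to 3657 cells per library), 13 of 31 members tested differed between Y665F and WT, 8 lower and 5 higher, against a background of 30% of 11223 genes, 15.9% lower and 14.1% higher. With the replicate number as a block, 18 members were called, 9 lower and 9 higher, among 39.6% of genes. Those that fell in the fit without it were enzymes of the shared trunk of glycolysis together with Taldo1, Ldha and Pdhb. Gapdh was at 1101 and 952 CPM in WT, 962 and 762 in Y665H, and 304 and 338 in Y665F (−1.87 ± 0.23, adjusted p = 0.000374). Aldoa was at 654 and 615 CPM in WT, 638 and 432 in Y665H, and 156 and 99.8 in Y665F (−2.48 ± 0.29, adjusted p = 0.000297). Taldo1 was at 612 and 707 CPM in WT, 735 and 612 in Y665H, and 236 and 170.0 in Y665F (−1.89 ± 0.26, adjusted p = 0.000775). All 4 libraries without Y665F lay above both Y665F libraries for these genes. Eno3 went from 14.5 and 10.2 CPM in WT to 2.96 and 1.96 in Y665F, with 9.81 and 7.23 in Y665H (−2.41 ± 0.33, adjusted p = 0.00066). Tpi1 went from 296 and 242 CPM in WT to 138 and 122 in Y665F, with 256 and 201 in Y665H (−1.23 ± 0.23, adjusted p = 0.00241). Pgk1 went from 176 and 145 CPM in WT to 74.8 and 95.9 in Y665F, with 156 and 112 in Y665H (−1.12 ± 0.23, adjusted p = 0.00355). Again no Y665F library reached any of the others. Ldha, which reduces pyruvate to lactate, was at 630 and 347 CPM in WT, 383 and 299 in Y665H, and 269 and 251 in Y665F (−1.08 ± 0.26, adjusted p = 0.00829), and WT replicate 1 stood far above the rest. Pdhb, the beta subunit of the first pyruvate dehydrogenase enzyme, was at 105 and 85.5 CPM in WT, 97.0 and 73.8 in Y665H, and 64.6 and 58.0 in Y665F (−0.82 ± 0.22, adjusted p = 0.0141).

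The 5 members that rose in the erythroid gate, 16.1% of those tested against 14.1% of all genes, were Slc2a3, Pfkp, Pfkfb3, Hk3 and Aldoc, all of them low there. Slc2a3, a high-affinity glucose carrier, was at 5.34 and 6.32 CPM in WT, 4.60 and 6.32 in Y665H, and 9.78 and 16.3 in Y665F, a log2 rise of 0.91 ± 0.30 (adjusted p = 0.035). Pfkp was at 5.22 and 4.0 CPM in WT, 3.99 and 4.79 in Y665H, and 8.29 and 13.5 in Y665F (1.01 ± 0.31, adjusted p = 0.0227). Pfkfb3, which makes the activator of phosphofructokinase, was at 2.37 and 3.07 CPM in WT, 1.91 and 2.8 in Y665H, and 5.23 and 10.7 in Y665F (1.26 ± 0.40, adjusted p = 0.0266). In each case both Y665F libraries were above the other 4 and replicate 2 was the higher of them. Hk3 was at 1.54 and 0.744 CPM in WT, 0.955 and 1.94 in Y665H, and 2.86 and 11.3 in Y665F (2.34 ± 0.60, adjusted p = 0.0109), so that 1 library carried most of its rise. Aldoc was called as higher on very few molecules, 3 UMIs over both WT libraries and 33 over both Y665F libraries, a ratio of CPM of 14.3 with an exact 95% interval of 4.5 to 73.0 from counting error. All 13 members called in this gate had the same direction within the replicate 1 libraries and within the replicate 2 libraries.

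Of the 13 calls in the erythroid gate, those of Gapdh, Aldoa, Taldo1 and Pgk1 were kept under all 17 alternative settings, and those of Tpi1 and Eno3 under 16, both being lost with cycling cells left out. Hk3 was kept under 14, Ldha under 13, Pdhb under 12, Slc2a3 and Pfkp under 11 and Pfkfb3 under 10. Aldoc was kept under 14 of 15. DESeq2 did not call Pfkfb3, Slc2a3 or Pfkp. With cycling cells left out Gapdh gave −1.47, Aldoa −2.16, Taldo1 −1.92, Pgk1 −1.15, Hk3 0.82 and Pfkp 0.37, and 4 members were called in all. The count also moved with single libraries left out. The shares of all genes under these settings are not given, so the counts are not read as particular to the members. The erythroid gate itself differed in makeup between genotypes. The summed level of its 8 erythroid markers spanned 7252 and 9844 CPM in WT and 1901 and 3190 in Y665F. Most of that sum was Car1, at 6277 and 9060 CPM in WT and 2355 and 998 in Y665F. Of the 8 markers, 3 lay above and 4 below all other libraries in Y665F. The 8 megakaryocyte markers summed to 26.4 and 29.3 CPM in WT and to 101 and 370 in Y665F, with Ppbp and Gp6 at 0 in both WT libraries and 4 of 8 markers above all other libraries in Y665F. Most of the Y665F sum was Pf4, at 71.9 and 312 CPM, against 11.6 and 13.5 in WT. The 8 neutrophil markers summed to 6.17 and 7.44 CPM in WT and to 80.5 and 107 in Y665F, with 7 of 8 above all other libraries and Fcnb at 0 in WT. Of 12 cell cycle genes 6 were called as lower in Y665F in this gate and none as higher, while 7 lay below and 3 above all other libraries in both Y665F libraries. Of 5 hemoglobin genes 4 were called as lower, and 1 lay below all other libraries. With the length correction described below, 4 of the cell cycle genes and 0 of the hemoglobin genes were called as lower. Median mitochondrial shares in this gate were 0.884% and 0.879% in WT, 0.802% and 1.07% in Y665H, and 1.21% and 1.86% in Y665F. Y665F replicate 2 held no barcode below 1179 UMIs, against a minimum of 500 in the other BM libraries. The part of these differences in the calls was not tested. The 8 GMP markers summed to 228 and 267 CPM in WT and to 401 and 680.4 in Y665F, with 6 of 8 above all other libraries. Hk3, Pfkp, Slc2a3 and Pfkfb3 averaged less in the erythroid gate than in the GMP gate over the 6 libraries, and the part of these other cells in their rise was not tested. In the GMP gate, the neutrophil markers summed to 21.8 and 43.8 CPM in WT and to 273 and 279 in Y665F, again with 7 of 8 above all other libraries and Fcnb at 0 in WT. The megakaryocyte markers summed there to 91.0 and 108 CPM in WT and to 267 and 624 in Y665F, with 5 of 8 above all other libraries and Gp6 at 0 in WT. Pf4 alone stood at 64.1 and 62.5 CPM in WT and at 180 and 533 in Y665F in the GMP gate. The erythroid markers ranged from 655 to 913 CPM in WT and from 251 to 426.6 in Y665F, with 1 of 8 above and 1 below all other libraries. Car1 alone stood there at 547 and 862 CPM in WT and at 174 and 277 in Y665F. The gate's own GMP markers ranged from 5972 to 6840 and from 3788 to 5614, with 2 above and 3 below all other libraries in Y665F, and the part of these lists in the GMP result was not tested.

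In the stem gate (198 to 1290 cells per library) 2 of 25 members were lower in Y665F than in WT, against 1.54% of 7329 genes in either direction and 1.02% lower. With the length correction below, both stayed lower, against 1.12% of genes. They were Aldoa, at 521 and 633 CPM in WT, 694 and 465 in Y665H, and 193 and 110 in Y665F (−1.87 ± 0.38, adjusted p = 0.0173), and Gapdh, at 1046 and 1063 CPM in WT, 1152 and 879 in Y665H, and 384 and 358 in Y665F (−1.45 ± 0.33, adjusted p = 0.0323). The Y665F libraries were below all others for both. In this gate the 8 neutrophil markers summed to 20.7 and 24.8 CPM in WT and to 179 and 208 in Y665F, with 6 of 8 above all other libraries and Fcnb at 0 in WT, and the megakaryocyte markers to 138 and 209 in WT and 324 and 714 in Y665F, with 3 of 8 above and Gp1bb and Gp6 at 0 in WT. Most of the last sum in Y665F was Pf4, at 230 and 600 CPM, against 51.7 and 155 in WT. Gp9 went the other way, from 47.5 and 34.1 CPM in WT to 24.3 and 7.99 in Y665F. The part of these lists in the result was not tested. Without Y665F replicate 2 neither was called. Gapdh was not called without Y665F replicate 1 either (−1.54, adjusted p = 0.121), nor without Y665H replicate 1 or without cycling cells (−1.36, adjusted p = 0.0581), and in the last pair of fits 1 member was called, and without WT replicate 1 the count was 5. In the B lineage gate (169 to 1106 cells) none of 26 members was called by edgeR, against 2.14% of 8635 genes, while 9 had an unadjusted p under 0.05, DESeq2 called 2 and edgeR called 6 without WT replicate 1. With the replicate number as a block, edgeR called 4 there, 3 lower and 1 higher. Apart from the length correction, the shares of all genes under the alternative settings of the stem and B lineage gates are not given. These counts are therefore not read as particular to the members. In the B lineage gate Gapdh came to −1.59 (adjusted p = 0.0516) and Taldo1 to −1.42 (adjusted p = 0.0570), with Gapdh at 1039 and 1221 CPM in WT and 345 and 410.2 in Y665F. Markers of other cells were again higher in Y665F. The GMP markers ranged from 553 to 949 CPM in WT and from 1408 to 1430.3 in Y665F, the neutrophil markers from 14.3 to 65.1 and from 389 to 765, and the megakaryocyte markers from 53.7 to 56.2 and from 310.5 to 575, with 6, 6 and 5 of 8 above all other libraries. Pf4 alone stood at 50.2 and 41.5 CPM in WT and at 235 and 487 in Y665F. Fcnb was at 0 in both WT libraries, and so were Gp1bb, Ppbp, Vwf, Gp6 and Treml1, and the part of these other cells was not tested. In the neutrophil gate, with 6 cells in WT replicate 1, none of 7 members tested was called by edgeR or DESeq2, none had an unadjusted p under 0.05, and 0% of 792 genes were called.

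Over the 5 gates with at least 50 cells in every library (stem, GMP, erythroid, B lineage and monocyte), the ratio of mean CPM of WT over Y665F was 2.84 to 3.41 for Gapdh, 2.32 to 4.97 for Aldoa, 2.47 to 3.25 for Taldo1, 1.80 to 2.15 for Pgk1, 1.40 to 2.07 for Tpi1 and 1.56 to 1.88 for Ldha. Some other members of the same pathways had a ratio near 1. Slc2a3 (0.195 to 0.831), Hk3 (0.161 to 0.787), Pfkp (0.423 to 0.781), Pfkm (0.412 to 0.696) and Hk1 (0.557 to 0.915) lay below 1 in all 5 gates. So did Pfkl (0.557 to 0.850), Aldoc (0.0671 to 0.710), Slc16a1 (0.301 to 0.935) and Slc16a3 (0.329 to 0.841). Gpi1 (1.14 to 1.80), Pdhb (1.18 to 1.56) and Eno1, the common enolase (1.16 to 1.36), lay above 1 in all 5. Of those near 1, Pgd, the NADPH-making step after G6pdx, gave 0.951 to 1.15 and Pdha1 0.864 to 1.05. Tkt (transketolase) gave 1.04 to 1.17, slightly above 1 in all 5. For Tkt the mean hides replicates that went opposite ways, with log2 ratios of Y665F over WT in replicate 1 of −0.62 in the stem gate, −0.42 in the GMP gate, −0.44 in the erythroid gate and −0.62 in the B lineage gate, and in replicate 2 of 0.20, 0.22, 0.37 and 0.36. Pdha1 went opposite ways in the same gates, at −0.19 and 0.63 in the GMP gate. Pgd did so in the erythroid gate (−0.57 and 0.31) and the B lineage gate (−0.61 and 0.81). In the stem gate Slc2a3 (−0.43 and 1.42), Hk1 (−0.44 and 0.85), Pfkp (−0.13 and 1.28) and Pfkm (−0.05 and 2.26) did too. So did Eno1 (−0.62 and 0.15) and Gpi1 (−0.76 and 0.06) in the erythroid gate. A ratio of means therefore need not hold in both replicates. The ratios carry no test of their own.

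**Figure D2:**
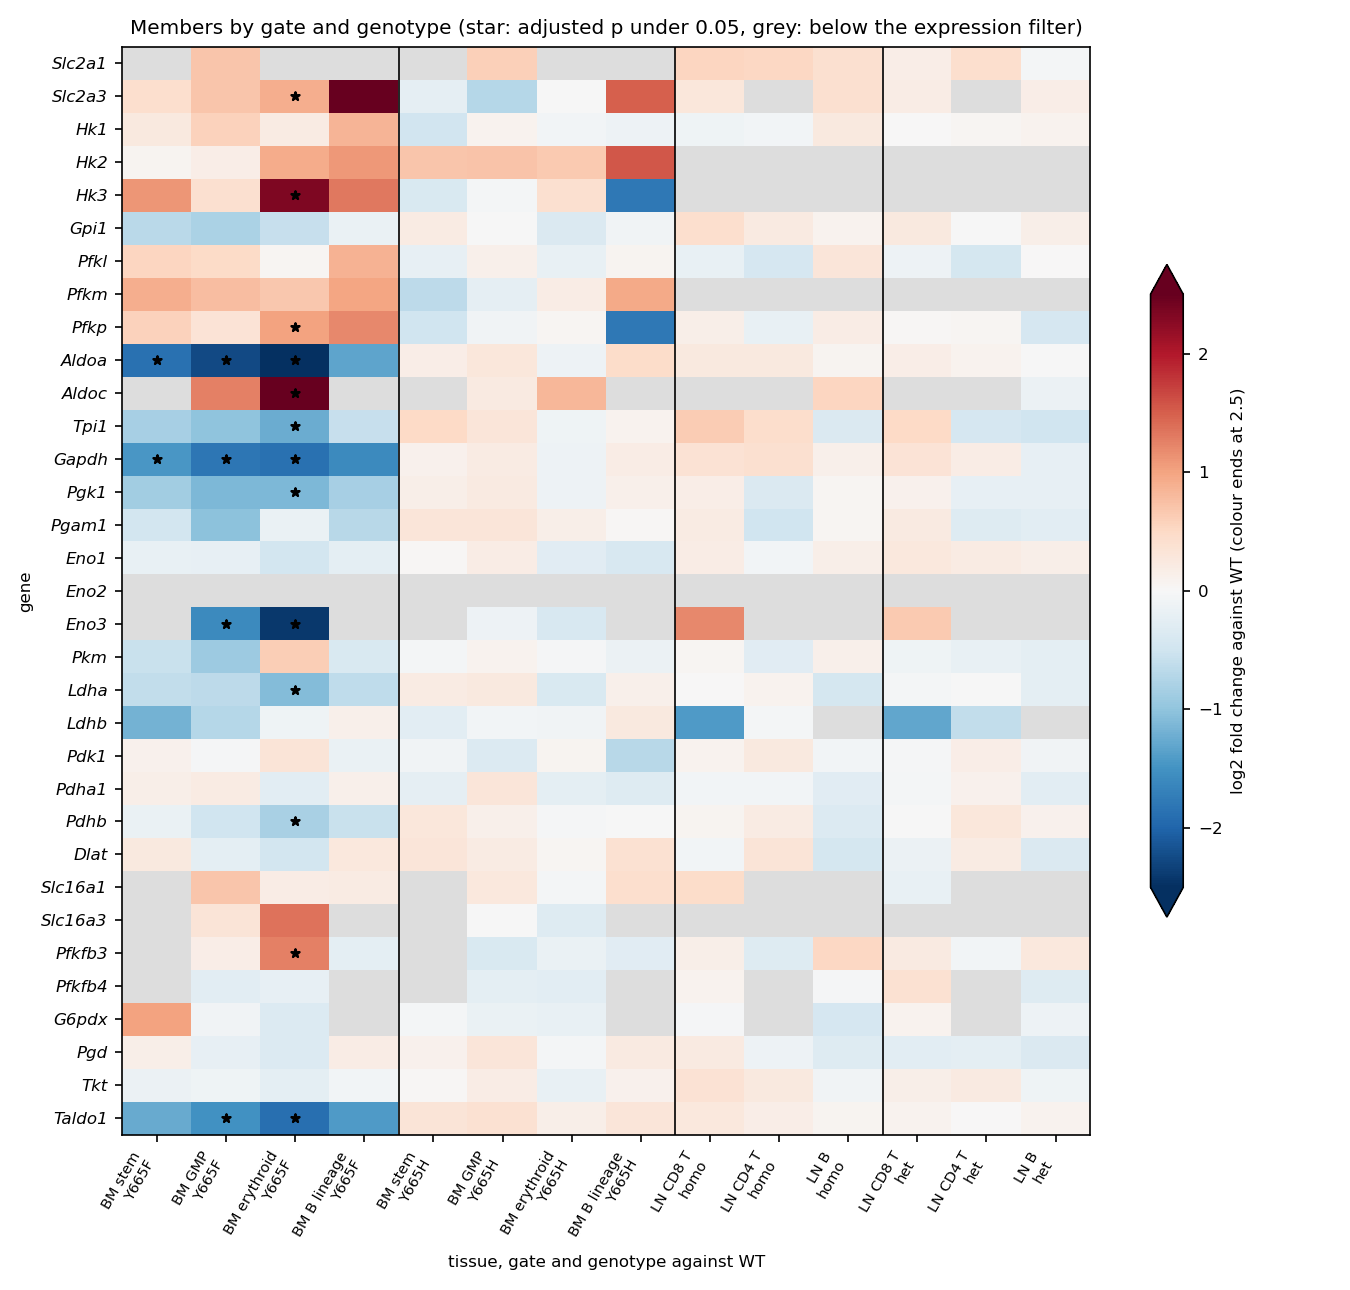
Log2 fold changes of the 33 members, grouped by role, in gates of BM for Y665F and Y665H against WT and in gates of LN for Y665F homo and het against WT, with blue for lower, red for higher, colour ends at 2.5 and grey for members below the expression filter. Stars mark calls, which are 2 in the stem gate, 4 in the GMP gate and 13 in the erythroid gate of Y665F, and 0 elsewhere.

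Fold changes of BM genes followed the length of the transcript, and this trend was checked for the members. Over all genes the log2 fold change of Y665F against WT rose with the longest annotated transcript, with Spearman's rho of 0.39 in the stem gate (7325 genes), 0.41 in the GMP gate (11761 genes), 0.46 in the erythroid gate (11215 genes) and 0.39 in the B lineage gate (8631 genes). These correlations are over genes of the same libraries and serve as a description. Of the 33 members, 10 have a longest transcript below 2000 bases and 23 a longer one, in a range of 1304 (Ldhb) to 5513 bases (Hk2). The short ones are Aldoa, Tpi1, Gapdh, Pgk1, Pgam1, Eno3, Ldha, Ldhb, Pdhb and Taldo1, and all members that fell against WT in any gate were among them. In the GMP gate the 10 short members had a median log2 fold change of −1.07, with a range of −2.25 to −0.51, against −0.36 for all genes below 2000 bases, and the long members a median of 0.19 against 0.14 for all long genes. In the erythroid gate the corresponding medians were −1.17 for short members against −0.44 for all short genes, and 0.21 for long members against 0.21 for all long genes. By these medians short members were lower than short genes as a whole, though Ldhb at −0.10 and Pgam1 at −0.17 stood near 0 in the erythroid gate, and long members were near the other long genes.

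A fit with a correction for length per library left the largest differences in place. Aldoa in the GMP gate gave −1.87 (adjusted p = 0.0101), Gapdh −1.42 (adjusted p = 0.00759), Eno3 −1.21 (adjusted p = 0.0448) and Taldo1 −1.09 (adjusted p = 0.0261), so 4 of 32 members were still lower against 4.61% of genes. In the erythroid gate 6 members remained lower against 8.28% of genes, Aldoa at −1.97, Eno3 at −1.91, Taldo1 at −1.34, Gapdh at −1.31, Tpi1 at −0.71 (adjusted p = 0.0179) and Pgk1 at −0.62 (adjusted p = 0.0423). Ldha at −0.60 (adjusted p = 0.0714) and Pdhb at −0.28 (adjusted p = 0.278) were no longer called, and neither were Slc2a3 at 0.88 (adjusted p = 0.054) and Pfkfb3 at 1.10 (adjusted p = 0.0599). Pfkm at 0.89 (adjusted p = 0.0246) and Pkm at 0.94 (adjusted p = 0.0407) were called as higher with the correction alone, so that 5 members were higher against 12.9% of genes. In the B lineage gate, with 1.69% of genes lower, Gapdh at −1.31 (adjusted p = 0.0241) and Taldo1 at −1.15 (adjusted p = 0.0319) became calls.

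**Figure D3:**
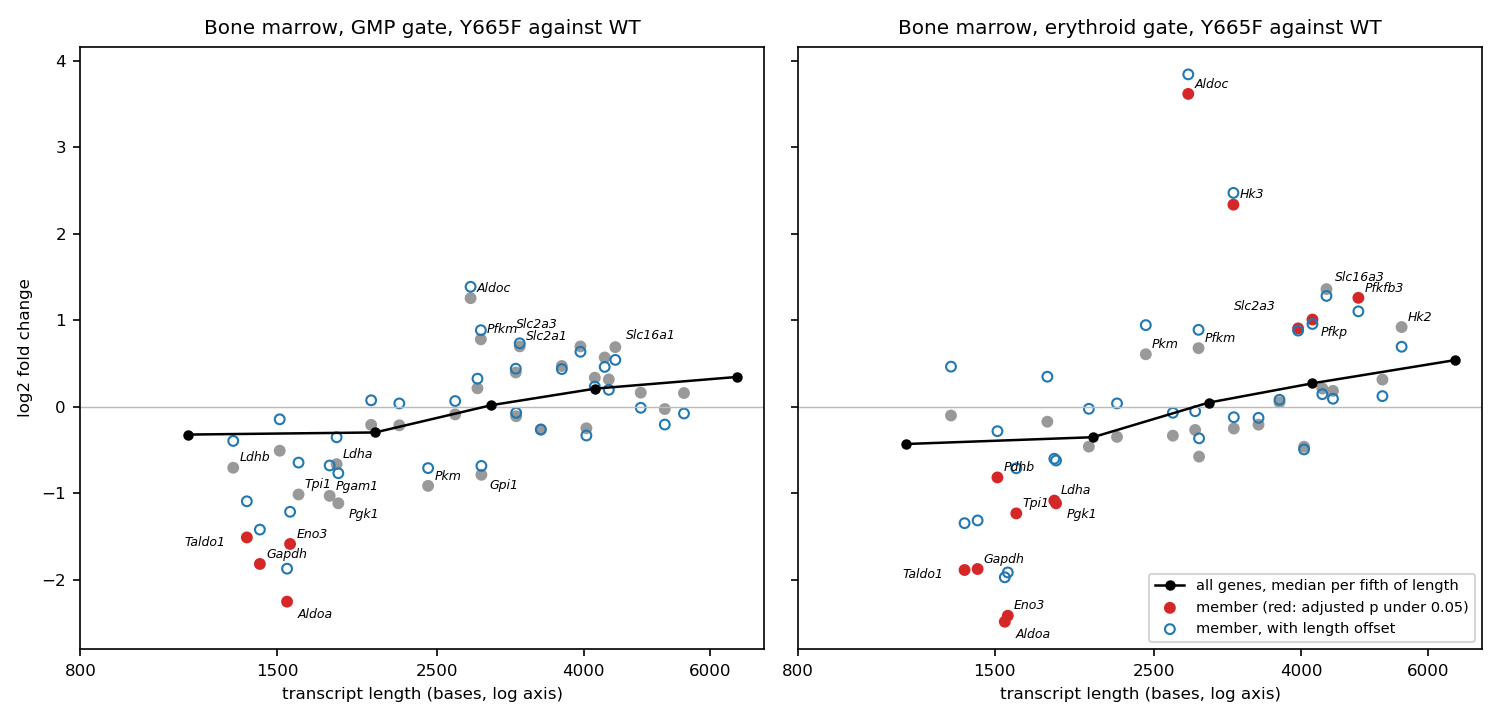
Log2 fold change of Y665F against WT of each member plotted against the length of its longest transcript in bases, in the GMP gate and the erythroid gate, with called members in red, others in grey, the same members under the length correction as open blue points and the medians of 5 length classes of all genes in black. Most short members lie below the black line, down to −2.25 in the GMP gate and −2.48 in the erythroid gate.

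The trend with length was also found between libraries of the same genotype for WT and Y665F, and its strength differed between pairs of libraries. Between the Y665H libraries of the GMP gate rho was −0.000262. In the GMP gate rho was −0.51 for WT replicate 2 over WT replicate 1 and 0.33 for Y665F replicate 2 over replicate 1, but 0.026 for Y665F replicate 1 over WT replicate 1, both libraries with Xist. In that pair all 10 short members were lower in Y665F, with a median log2 difference of −0.68 and a range of −1.60 to −0.22, against 49.1% of 3378 short genes and a median of 0.014 over them, whereas 9 of 22 long members were lower, with a median of 0.12. In the stem gate, where rho was −0.074 for the same pair, 9 of 9 short members were lower with a median of −0.58, against 45.7% of 2254 short genes and a median of 0.074. In the B lineage gate, at −0.045, 8 of 9 short members were lower with a median of −0.64, against 45.6% of 2513 short genes and a median of 0.083. The same pair was not flat in the erythroid gate, at 0.35, and there 10 of 10 short members were lower with a median of −1.26, against 64.8% of 3215 short genes and a median of −0.26. Between the WT libraries of the GMP gate, 3 of 10 short members were lower in replicate 2, with a median of 0.51, against 20.6% and a median of 0.52 for all short genes. These are single libraries and no test was made of them.

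No member was called between Y665H and WT, which does not show that the levels were equal. In the stem, GMP, erythroid and B lineage gates none of 25, 32, 31 and 26 members was called by edgeR or DESeq2, and 0% of all genes were. Unadjusted p-values under 0.05 were found for 0, 2, 0 and 2 of them. Log2 fold changes of members ranged from −0.65 to 0.69 in the stem gate, from −0.71 to 0.71 in the GMP gate and from −0.39 to 0.83 in the erythroid gate. In the neutrophil gate none of 7 was called by either tool, and 1 had an unadjusted p under 0.05. The trend with length ran the other way, at −0.40 in the GMP gate and −0.12 in the erythroid gate, but it depended on the WT library. In the GMP gate rho was −0.53 and −0.44 for Y665H replicates 1 and 2 over WT replicate 1. Over WT replicate 2 it was 0.048 and 0.027. In the erythroid gate the values were −0.25 and −0.091 over WT replicate 1, and −0.026 and 0.088 over WT replicate 2. The 10 short members had a median of 0.23 in the GMP gate against 0.22 for all short genes, but −0.12 in the erythroid gate against 0.053.

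Set against Y665H in place of WT, with the Y665F libraries shared by both comparisons, Y665F was lower for 8 members and higher for 2 of 32 in the GMP gate, where 24.7% of genes were called, 12.6% lower and 12.1% higher. The lower members were Aldoa (−2.53), Gapdh (−2.02), Taldo1 (−1.90), Eno3 (−1.45), Pgk1 (−1.34), Pgam1 (−1.33), Tpi1 (−1.31) and Pkm (−1.0). The higher ones were Slc2a3 at 1.41 (adjusted p = 0.00861), from 5.84 and 6.13 CPM in Y665H to 19.0 and 20.2 in Y665F, and Pfkm at 1.0 (adjusted p = 0.0251). For Slc2a3 WT replicate 1 stood at 18.3 CPM and WT replicate 2 at 7.56, so WT overlapped with Y665F. In the erythroid gate 8 members were lower and 6 higher of 31, against 35.5% of genes, 18.4% lower and 17.1% higher. The 8 were Aldoa (−2.35), Taldo1 (−2.03), Eno3 (−2.02), Gapdh (−1.74), Tpi1 (−1.12), Pgk1 (−0.98), Pdhb (−0.78) and Ldha (−0.70), and the 6 were Aldoc (2.78), Hk3 (1.93), Slc16a3 (1.68), Pfkfb3 (1.42), Pfkp (0.96) and Slc2a3 (0.92). The stem gate gave 4 lower members of 25 against 7.86% of genes (5.06% lower), Aldoa (−2.03), Taldo1 (−1.60), Gapdh (−1.56) and Tpi1 (−1.32). The B lineage gate gave 3 lower and 2 higher of 26 against 4.71% of genes (3.25% lower and 1.46% higher), with Gapdh, Aldoa and Taldo1 between −1.78 and −1.73, and with Hk3 and Pfkp higher on 2 and 4 UMIs in Y665H. Without cycling cells 3 members were called in the GMP gate, against 5.49% of genes, 3 in the erythroid gate, against 4.36%, and 2 in the B lineage gate, against 1.75%, all of them lower. With the length correction the counts were 11 and 12, but Eno3 was no longer called in the GMP gate, nor Ldha, Pdhb and Pgk1 in the erythroid gate. The shares of all genes under that correction are not given, so no excess of members is read from these counts. The counts also moved with single libraries. In the B lineage gate no member was called without any 1 of the 4 Y665H and Y665F libraries, and 8 were without WT replicate 1. The GMP gate gave 0 without Y665H replicate 1 or Y665F replicate 2, 1 without Y665H replicate 2, 4 without Y665F replicate 1 and 16 without WT replicate 1. The stem gate gave 0 without Y665H replicate 1 or Y665F replicate 2, 2 without Y665H replicate 2 and 9 with 1 WT library left out, whichever it was. The erythroid gate gave 5 without Y665H replicate 1 and 7 without Y665F replicate 2. In the neutrophil gate edgeR called none of 7 (0% of genes), 2 had an unadjusted p under 0.05 and DESeq2 called none.

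In LN, no member was called between Y665F and WT. In the CD8 T gate (1000 to 2331 cells per library) edgeR called 0 of 27 members in homo, with 1.84% of 9460 genes called, and 0 of 27 in het, with 0.951%. Unadjusted p-values under 0.05 were found for 7 and 4 members, and DESeq2 called none. The members that took the most UMIs over all kept cells were Aldoa at 382 to 433 CPM, Ldha at 355 to 486 and Pkm at 299 to 354 over the 7 libraries. In CD8 T cells of homo the log2 difference from WT was 0.25 ± 0.13 for Aldoa, 0.02 ± 0.13 for Ldha and 0.04 ± 0.13 for Pkm, none of them called.

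The widest estimates in LN CD8 T cells were those of Ldhb and Eno3. The homo libraries held Ldhb at 2.87 and 3.89 CPM and the het libraries at 2.95, 5.97 and 3.63, against 7.45 and 11.7 in WT, and every Y665F library lay below both WT libraries. The log2 fold change was −1.42 ± 0.49 in homo (adjusted p = 0.168) and −1.30 ± 0.35 in het (adjusted p = 0.0953), so neither passed. The shallow libraries held 2 UMIs of Ldhb each. Eno3 stood at 12.9 and 12.95 CPM in homo and at 9.0, 9.43 and 3.63 in het, against 4.06 and 6.66 in WT (homo 1.2 ± 0.37, adjusted p = 0.117). Both homo libraries were above all others. Tpi1 stood at 55.9 and 53.1 CPM in homo and at 43.6, 48.1 and 81.6 in het, against 35.2 and 36.6 in WT (homo 0.63 ± 0.21, adjusted p = 0.137), with no overlap of WT and either Y665F group. Gapdh stood at 221 and 165 CPM in homo and at 198, 152 and 210.3 in het, against 129 and 165 in WT (homo 0.36 ± 0.16, adjusted p = 0.296), and het and WT overlapped. Without the shallow het replicate 3, 1 member was called in homo. Cells with a UMI of Ccl5, a chemokine of memory CD8 T cells, were a larger part of this gate in Y665F, with shares of 39.5% and 47.8% for homo and 36.5%, 27.3% and 30.3% for het, against 7.85% and 7.04% for WT. In LN B cells the share was 0% to 0.825% at medians of 302 to 1944 UMIs, against 508 to 3890 in CD8 T cells. The part of this shift in the estimates was not tested beyond a fit of cells without a Ccl5 UMI, in which no member was called either.

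In the CD4 T gate none of 22 members was called, against 0.563% of 6398 genes in homo and 0.344% in het, and in the B gate none of 25, against 0.0669% and 0.0892% of 8971 genes. DESeq2 called none in either gate. In CD4 T cells 0 members of homo and 1 of het had an unadjusted p under 0.05, and in B cells 0 and 1. The latter was Tpi1 in het (−0.50 ± 0.16, adjusted p = 0.406), at 74.4 and 89.0 CPM in WT and 49.9, 67.2 and 64.1 in het.

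In spleen there was 1 library per genotype, so no test was possible, and intervals are exact 95% Poisson intervals that cover counting error alone. A member was counted as different where its CPM differed by more than 1.5-fold with intervals apart. In the CD8 T gate (1328 WT, 945 Y665H and 1611 Y665F cells), 3 of 31 members were higher and 1 lower in Y665F, against 3% and 5.72% of 11016 genes. Tpi1 was at 27.6 CPM (24.3 to 31.2) in WT and 44.1 (40.6 to 47.8) in Y665F. Hk2, a hexokinase, was at 1.85 (1.08 to 2.96) and 5.24 (4.09 to 6.61), and Eno3 at 4.57 (3.29 to 6.17) and 8.56 (7.07 to 10.3). The lower member was Ldhb, at 1.84 (1.19 to 2.72) in Y665F against 7.61 (5.93 to 9.61) in WT, and Y665H stood at 7.66 (5.72 to 10.04). Tpi1, Eno3 and Ldhb had the same direction in spleen as in LN, where none was called. Y665H CD8 T cells were higher for 2 of 29 members against 2.89% of genes and lower for none against 0.487%, Pfkfb4 at 6.04 (4.33 to 8.19) against 2.17 (1.33 to 3.36) and the lactate exporter Slc16a3 at 4.86 (3.35 to 6.83) against 1.2 (0.597 to 2.14). Neutrophil markers were higher in both mutants, summing to 93.9 CPM in the WT CD8 T gate, 4438 in Y665H and 3558 in Y665F. Hemoglobin genes summed there to 11.8, 1619 and 2.66 CPM. Pfkfb4 at 3.098 CPM and Slc16a3 at 1.55 in Y665F CD8 T cells were not counted as different from WT. Neither was Hk2 at 4.27 CPM in Y665H. In the neutrophil gate of WT, Y665H and Y665F, Slc16a3 was at 218, 311 and 103 CPM, Pfkfb4 at 185, 186 and 56.5, and Hk2 at 75.6, 43.9 and 72.8, all above the T cell levels. The part of neutrophil or erythroid RNA in the higher Hk2, Pfkfb4 and Slc16a3 was not tested. Cells with a Ccl5 UMI made up 38.6% of the CD8 T gate in WT, 33.8% in Y665H and 77.6% in Y665F, at median depths of 6680, 6776 and 8597 UMIs. In spleen B cells, which should lack Ccl5, the shares were 11.96%, 10.9% and 16.6% at medians of 3847, 3852 and 3757 UMIs, so a Ccl5 UMI does not by itself mark an expressing cell there.

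**Figure D4:**
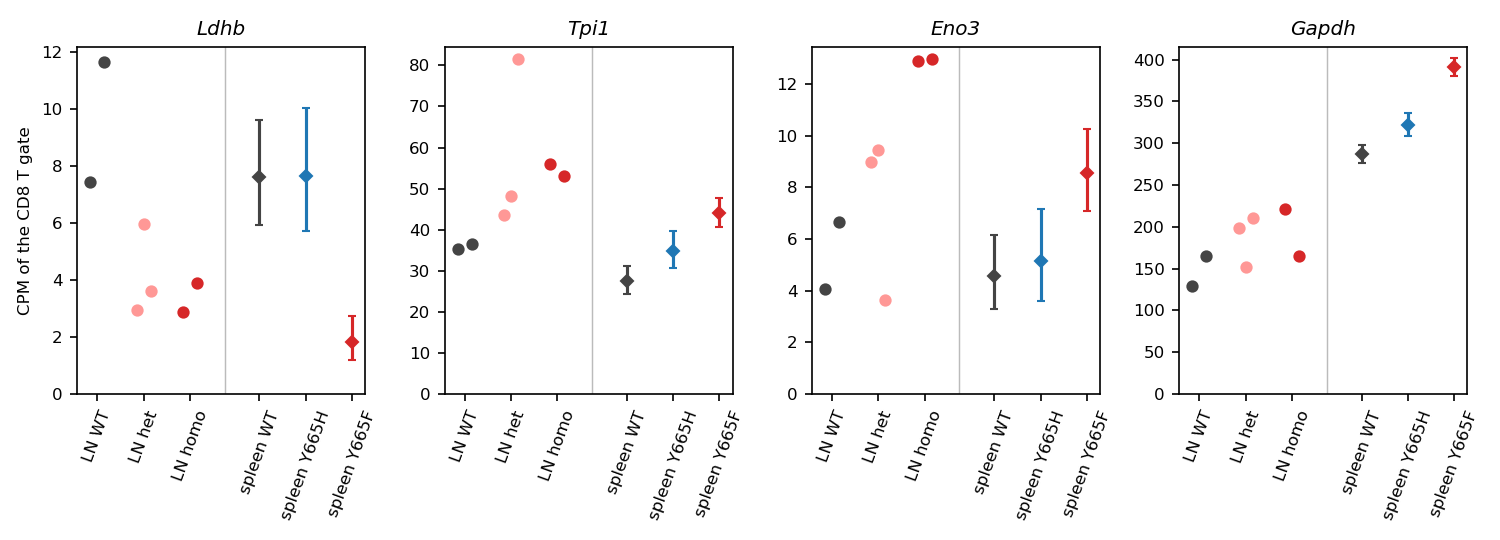
CPM of Ldhb, Tpi1, Eno3 and Gapdh in the CD8 T gate of LN (1 dot per library, by genotype) and of spleen (1 diamond per genotype, with bars for the exact 95% Poisson interval of the count). Ldhb of the 5 LN Y665F libraries lies between 2.87 and 5.97 CPM, below 7.45 and 11.7 in WT, and in spleen Y665F it lies at 1.84.

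In other spleen gates few members differed. In CD4 T cells Tpi1 was at 25.9 CPM (21.99 to 30.2) in WT and 40.3 (34.6 to 46.6) in Y665F, and Ldhb at 21.1 (17.6 to 25.1) and 12.8 (9.67 to 16.5), 1 higher and 1 lower of 28 members against 1.99% and 4.25% of 9836 genes. Slc16a3 was higher in Y665H CD4 T cells, at 5.5 (3.87 to 7.57) against 1.47 (0.674 to 2.80), and in Y665H B cells, at 4.25 (2.80 to 6.18) against 1.0 (0.326 to 2.34), each 1 of 29 members against 2.03% and 1.73% of genes, while none was lower (0.495% and 0.646% of genes). Neutrophil markers were again higher, at 21.8 CPM in WT, 1625 in Y665H and 2349 in Y665F CD4 T cells and at 31.1, 3446 and 947 in B cells, and hemoglobin genes at 9.50, 183 and 2.46 and at 16.9, 1365 and 8.95. Their part in the Slc16a3 values was not tested. Y665F B cells held less Pfkfb3, at 10.4 (6.94 to 15.1) against 23.5 (19.4 to 28.2), 1 of 27 members against 1.91% of genes, and none was higher against 0.812%. In regulatory T cells Pkm was higher in Y665H, at 256 CPM against 166, 1 of 21 members against 1.42% of genes with none lower against 0.445%, and Pdha1 was lower in Y665F, at 61.3 against 98.3, 1 of 24 against 2.63% with none higher against 2.01%. In NK cells Ldha was higher in Y665H, at 222 CPM against 143, 1 of 23 members against 0.929% with none lower against 1.02%, and Eno1 was higher in Y665F, at 268 against 176, 1 of 20 against 1.37% with none lower against 3.24%. Neutrophil markers in WT, Y665H and Y665F summed to 32.0, 1545 and 2319 CPM in the regulatory T gate and to 21.5, 374 and 376 in the NK gate, and hemoglobin genes to 12.2, 164 and 1.15 and to 18.6, 178 and 3.21. The neutrophil gate held Pkm at 555 to 697 CPM, Ldha at 255 to 342 and Eno1 at 310 to 328, all above the T and NK levels named, and the part of these cells was not tested. Over all kept spleen cells Gapdh (319 CPM in WT, 400 in Y665H and 489 in Y665F), Ldha (193, 222 and 247) and Taldo1 (161, 246 and 206) took the most UMIs, and unlike in BM none of them was lowest in Y665F. Counted over all cells, 9 of 32 members were higher and 1 lower in Y665F (6.81% and 9.38% of 13876 genes), and 7 of 33 were higher in Y665H (7.83% of 14293 genes) and none lower (1.5%). Hk3 stood at 14.8 CPM (13.6 to 16.1) in Y665F and 7.93 (7.15 to 8.78) in Y665H, against 1.31 (0.984 to 1.72) in WT, while the neutrophil gate held 145 cells in Y665F, 233 in Y665H and 33 in WT.

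In the spleen neutrophil gate 4 of 22 members (18.2%) were lower in Y665F than in WT, close to the 15.8% of all 4182 genes, and 1 was higher, against 7.1%. The gate differed in makeup, with cycling-positive cells at 0% in WT and 24.1% in Y665F, median UMIs of 3030 and 7372, GMP markers at 218 and 1478 CPM and cell cycle genes at 16.8 and 1313 CPM. The part of these differences was not tested. Taldo1 stood at 2075 CPM (1824 to 2350) in WT and 887 (835 to 942) in Y665F, and Slc2a3 at 470.4 (355 to 611) and 257 (229 to 287). The others were Pfkfb4, from 185 to 56.5 CPM, and Slc16a3, from 218 to 103. Tkt, the partner enzyme of Taldo1, went the other way, from 454 (341 to 592) to 867 (815 to 920.4). In Y665H, Slc2a1 was higher (98.0 CPM against 25.2 on 3 WT UMIs) and Slc2a3 lower (311 CPM), 1 of 23 members each way against 4.24% and 2.26% of genes. Hemoglobin genes in this gate stood at 25.2 CPM in WT and 7288 in Y665H, and their part was not tested.

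Genes of the same pathways outside the 33 members were counted from a fixed list of 45. In the GMP gate 1 of 38 tested was higher and 2 were lower in Y665F than in WT, against 4.06% of all genes higher and 5.47% lower. The erythroid gate had 2 of 36 higher and 9 lower, against 14.1% and 15.9% of all genes. With the length correction the erythroid counts were 4 higher and 4 lower, against 12.9% and 8.28% of all genes. In the GMP gate they were 3 higher and 2 lower, with 4.61% of all genes lower and the share of higher ones not given. Mycn, a MYC family transcription factor, was higher in all 4 gates, with means of 11.7 CPM in WT and 50.2 in Y665F in the GMP gate (2.11 ± 0.26, adjusted p = 0.00175), 2.86 in the erythroid gate, 1.58 in the stem gate and 2.43 in the B lineage gate on the log2 scale. Bsg, the chaperone of the lactate carriers, was lower in the GMP gate (−1.35 ± 0.37, adjusted p = 0.0397) and the erythroid gate (−1.68 ± 0.27, adjusted p = 0.00117). In the erythroid gate the mitochondrial pyruvate carrier subunit Mpc1 gave −1.16 and the red-cell pyruvate kinase Pklr −0.79, and Txnip, which restrains glucose uptake, gave 0.96. Myc itself and Hif1a were not called in any BM gate. Of 15 other hypoxia-responsive genes, 2 were higher and 1 lower of 14 in the GMP gate, beside the same shares of all genes, with Ndrg1 at 1.64 and Bhlhe40 at 2.31 higher and Ddit4 at −1.45 lower, and 2 of 13 were higher in the erythroid gate, Ndrg1 at 2.12 and Vegfa at 1.23. With the length correction 2 were higher and 0 lower in the GMP gate, so Ddit4 was no longer called. In the erythroid gate 4 were higher and 0 lower, beside the corrected shares of all genes given above. In LN CD8 T cells Myc was higher in homo (0.59 ± 0.14, adjusted p = 0.0301) and in het (0.55 ± 0.13, adjusted p = 0.0357), the only gene of the 32 tested there that was called.

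Several members share sequence with other genes, and their counts are less certain for it. The share of 31-base words of the longest transcript that also occur in another gene was 84.1% for Gapdh, 77.2% for Eno1, 68.3% for Pgk1, 50.9% for Pkm, 34.2% for Aldoa, 22.4% for Taldo1 and 18.2% for Tpi1, and 0% for Eno3, Hk1, Hk3, Aldoc and Tkt. Aldoa is listed under a further identifier, which held at most 20 UMIs in any library of BM and was left out.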

How the data were processed

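Gene by barcode UMI counts of 16 mouse expression libraries were used as deposited. The authors made these counts with Cell Ranger on mm10; file headers read 5.0.0 (LN) or 6.0.0 (BM, spleen), and the labels name 5.0. The labels name a 3′ kit and the methods a 5′ kit, which bears on how transcript length enters the counts. T cell receptor libraries were not used.

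A barcode entered with 200 or more genes detected and a mitochondrial share no higher than 10%. No doublet caller was run, but cells with tied marker counts fell outside the BM gates. BM gates needed at least 2 UMI-positive markers of a list and a lead of 1 over the other 8 lists, T gates at least 1 T marker and no B marker, and B gates at least 2 B markers. UMIs were summed per library and gate. Library totals ran from 2621583 to 55768078 UMIs.

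Sums were tested with edgeR 4.0.16 (quasi-likelihood, TMM, filterByExpr, all genotypes of a tissue in 1 model, R 4.3.3), with Benjamini-Hochberg adjustment over all genes of the gate and calls at an adjusted p under 0.05. DESeq2 1.42.0 was an alternative. CPM are UMIs per 1e6 UMIs of the library and gate. The test was checked on simulated counts with the same dispersion for every gene. The spread between these replicate libraries was not simulated, so the check does not cover it. Replicate libraries differed beyond counting noise (chi-square per degree of freedom 3.47 to 73.7). The labels do not say whether replicates are separate animals, so p-values measure only the spread between these libraries. In BM the replicates of each genotype differed in Xist and Y-linked genes, so they came from different animals. The spread within a BM genotype includes that split. The length correction was a spline with 4 degrees of freedom on log10 transcript length (GENCODE vM21) per library. Promoters are from RefSeq (GRCm38.p6). Spleen, with 1 library per genotype, has exact 95% Poisson intervals, which cover counting error only, for genes with at least 30 UMIs over the pair of libraries. Named are every member called, the 3 of highest CPM per tissue and the isoform families. Other members and the uncalled values given (such as Tpi1 in LN) were chosen after their values were seen. The members and lists were chosen with earlier results of these data known.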

Additional observations from a re-analysis of the deposited data

Results flagged for a closer look

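For the members below, the BM and LN comparisons of Y665F with WT went opposite ways, with every BM Y665F library below every BM WT library and every LN homo library above every LN WT library. The share of all genes that did so was not computed, so nothing is read from how many members did. The difference between tissues was not tested, depth and cell classes differed between them, and none of the LN values was called. Gapdh, lower in the stem, GMP and erythroid gates of BM, had a log2 fold change of 0.36 in LN CD8 T cells and 0.41 in LN CD4 T cells. In LN CD8 T cells its lower homo library and its higher WT library had the same CPM as rounded above. Aldoa, lower in the same BM gates, had 0.25 in both LN T cell gates. Taldo1, lower in the GMP and erythroid gates, had 0.17 in LN CD4 T cells. Eno3, lower in the GMP and erythroid gates, had 1.2 in LN CD8 T cells. Tpi1, lower in the erythroid gate, had 0.63 in LN CD8 T cells and 0.44 in LN CD4 T cells.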

How the results depend on the processing

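Several counts of members called moved with the processing. Y665F against WT in the GMP gate of BM (4 members called) gave 8 with DESeq2, with at most 5% mitochondrial UMIs and with a replicate block, 9 with a stricter gate, 10 with block and length correction together, and 0 without cycling cells. The stem gate (2 called) gave 4 with no expression filter, 4 with block and length correction and 1 without cycling cells. The erythroid gate (13 called) gave 4 without cycling cells, 18 with the block and 10 to 16 under the other settings. The B lineage gate (0 called) gave 1 with RLE size factors, thinned UMIs or a stricter gate, 2 with DESeq2, with at most 5% mitochondrial UMIs, with the length correction or without cycling cells, 3 with block and length correction, and 4 with no filter or with the block. The neutrophil gate (0 called) gave 1 with block and length correction. LN CD8 T cells (0 called) gave 1 in homo and 1 in het with no filter. Leaving out each library in turn gave 0 to 5 in the stem gate, 0 to 11 in the GMP gate, 7 to 15 in the erythroid gate, 0 to 6 in the B lineage gate, 0 to 1 for Y665H in the GMP gate and 0 to 1 for homo in LN CD8 T cells. The causes were not tested. These counts stand without the share of all genes under the same setting, so they describe how the calls moved and nothing particular to the members. Deviations of same-numbered libraries correlated at −0.142 to 0.400 in BM and at −0.080 to 0.050 in LN, so by the rule that every pair must exceed 0.1 the numbers were not taken to pair the samples. In the erythroid gate alone all pairs did, from 0.205 to 0.399, and in BM the numbers ran with the Xist and Y-linked split, so the block counts are given beside the GMP, erythroid and B lineage results. Depth limits the low members most, above all in the 2 shallow LN libraries.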

Other observations

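CD8 T cells of LN were also split by whether a Ccl5 UMI was seen, and members were compared within each of the 7 libraries. Pfkp, the platelet-type phosphofructokinase, was higher in Ccl5-positive cells in all 7, at 86.6 to 112 CPM (median 102) against 53.5 to 86.3 (median 70.2). Pgam1 was higher in all 7, at 114 to 198 CPM (median 134) against 87.0 to 109 (median 90.7). Pdk1, the kinase that shuts off pyruvate dehydrogenase, was lower in all 7, at 46.3 to 72.9 CPM (median 53.4) against 78.7 to 104 (median 84.9). No other member of the 33 had 1 direction in all 7 libraries. Among genes of at least 10 CPM on average, 2 of 23 members were higher in all 7 against 3.73% of 7615 genes, and 1 was lower against 7.92%, so the counts are not read as particular to the members. The same directions were seen in 3 of 3 spleen libraries, where 10.9% to 16.6% of B cells also held a Ccl5 UMI, with Pfkp at 94.7 to 106 CPM in Ccl5-positive and 62.4 to 66.7 in Ccl5-negative cells, and Pdk1 at 86.7 to 103 against 141 to 152. Ldhb was lower in Ccl5-positive cells in 6 of 7 LN and 3 of 3 spleen libraries. The part of depth per cell in this split was not tested.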
